A study of Danio rerio with 6 samples.

Results

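The embryonic globin genes hbbe1.1, hbbe1.2, hbbe1.3, hbbe2 and hbbe3, which encode beta chains, and hbae1.1, hbae1.3, hbae3 and hbae5, which encode alpha chains, were followed in whole zebrafish larvae. These 9 of the 37685 genes of the deposited table were chosen by symbol, and a second row of the same symbol with a numeric suffix was added to its gene, so that 12 table rows stand for the 9 genes. The control group held 3 libraries of wild-type AB larvae at 72 hours post fertilization. The other group held 3 libraries of larvae of the same age that came from AB embryos injected as single cells with a morpholino, an antisense oligonucleotide, whose named target is the gap junction gene GJB2. Larvae given a control oligonucleotide were not analysed here, so injection itself and loss of the target cannot be told apart. The labels give neither the number of larvae per library nor whether the 3 libraries of a group are of different clutches. The p-values rest on library spread alone, and part of that spread may be technical.

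Hemoglobin carries oxygen in red cells as a tetramer built of paired alpha and beta chains, each holding a heme group. Zebrafish make embryonic chains in the primitive red cells that circulate in the embryo and young larva, and adult chains in red cells formed later. Alpha and beta genes lie interleaved in clusters, and several are tandem copies of nearly the same sequence, so reads of a copy can be assigned to its neighbour. In whole larvae, fewer red cells and less globin RNA per red cell cannot be told apart.

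In the table's GRCz11 coordinates, 6 of the 9 genes lay on chromosome 3 within 33.7 kb. The forward strand carried hbbe1.1 (55114097 to 55114874), hbbe1.2 (55122662 to 55123439) and hbbe1.3 (55131289 to 55132277). The reverse strand carried hbae1.1 (55120372 to 55121066), hbae1.3 (55138413 to 55139127) and hbae3 (55146590 to 55147767). With hbae1.2, which is not among the 9, each of these beta genes was followed by an alpha gene on the opposite strand. The remaining genes lay on chromosome 12 within 14.1 kb, hbbe3 (20339469 to 20340543) and hbbe2 (20349867 to 20350573) on the reverse strand and hbae5 (20352417 to 20353544) on the forward strand. The embryonic alpha genes hbae1.2 and hbae4 lie in the same clusters and are given below for comparison.

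The total counts of the 6 libraries lay between 14582030 and 19743658. Levels are counts per 1e+06 counts after TMM scaling (CPM), given as mean ± SD (n = 3). Each log2 fold change sets morpholino against control and is given ± SE, from edgeR's quasi-likelihood test with Benjamini-Hochberg adjustment over 22247 genes. A gene was called at an adjusted p under 0.05. Among connexin genes, gjb8 is a candidate for the named target, which the labels do not tie to a zebrafish symbol. With its rows added it had 7, 8 and 11 counts in controls 1 to 3 and 114, 14 and 16 in morpholino libraries 1 to 3, and since a morpholino need not lower its target's RNA, this checks no label.

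Embryonic chains accounted for nearly all of the hemoglobin RNA counted. The 9 genes together summed to 45645 counts in all controls and to 49540 in all morpholino libraries. The adult chain genes hbaa1, hbaa2, hbba1 and hbba2 held 7 and 6 counts. The 9 genes made up 0.0954% ± 0.0056 of all counts in controls and 0.0927% ± 0.0060 after morpholino (SD, n = 3). Per length, in TPM deposited by the authors (scaled by row length to the same sum in each library), the alpha gene hbae3 stood highest of the 9 in both groups, at 1304 ± 102 TPM in controls and 1216 ± 82.8 TPM after morpholino. Over the 6 libraries hbae3 ranked 140 and hbbe1.1 ranked 222 among the 37685 genes by mean TPM.

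The control order below hbae3 was hbbe1.1 (598 ± 72.6 TPM), hbbe2 (225 ± 0.69), hbbe1.2 (222 ± 23.8), hbbe1.3 (145 ± 4.85), hbae1.3 (87.0 ± 2.59), hbae1.1 (16.8 ± 3.77), hbae5 (1.89 ± 0.37) and hbbe3 (1.40 ± 1.53). The libraries of hbbe2 and hbbe1.2 overlapped, as did those of hbae5 and hbbe3, and all other neighbours in this order were separate. The morpholino libraries gave the same order, with hbbe2 (236 ± 19.4 TPM) now separate from hbbe1.2 (181 ± 16.7). hbae5 and hbbe3 still overlapped.

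**Figure D1:**
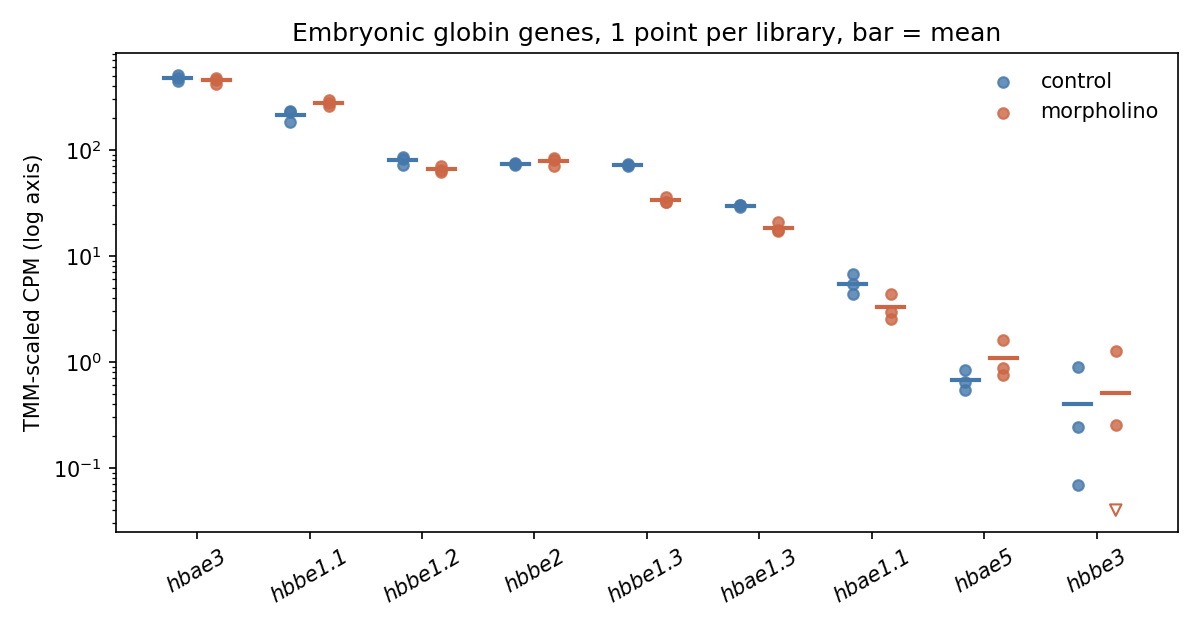
TMM-scaled CPM (log axis) of the 9 embryonic globin genes in each library, ordered by control mean; bars are group means and the open triangle marks the library with a count of 0 for hbbe3. The groups are far apart for hbbe1.3 (72.0 against 33.3 CPM) and overlap for hbae3 and hbbe2.

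The summed RNA of each chain differed little between the groups. The embryonic beta genes summed to 452, 412 and 456 CPM in controls 1 to 3 and to 482, 452 and 429 CPM in morpholino libraries 1 to 3. The groups overlapped, and the log2 difference was 0.05 (exact permutation test over libraries, two-sided, p = 0.6, where the smallest possible p is 0.1). The embryonic alpha genes summed to 510.2, 481 and 546 CPM in the controls and to 501, 479 and 442 CPM in the morpholino libraries. These groups overlapped too, with a log2 difference of -0.11 (exact permutation p = 0.2). With each sum entered as 1 row of the whole-table fit in edgeR, the beta sum gave 0.05 ± 0.07 (adjusted p = 0.761) and the alpha sum -0.11 ± 0.07 (adjusted p = 0.417). The 95% intervals ran from 0.938-fold to 1.14-fold for beta and from 0.837-fold to 1.02-fold for alpha. Intervals here and below use the normal quantile, with an SE derived from the test statistic. They are thus somewhat narrower than the quasi-likelihood test implies.

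The ratio of alpha to beta counts, which does not depend on how libraries are scaled, was lower in each morpholino library than in each control. It was 1.13, 1.17 and 1.2 in controls 1 to 3 and 1.04, 1.06 and 1.03 in morpholino libraries 1 to 3. The log2 difference was -0.16 (exact permutation p = 0.1, the smallest that 3 against 3 libraries allow). In deposited TPM the ratio was 1.18 ± 0.034 and 1.03 ± 0.014, with the groups again apart. How often ratios of other genes stand apart in this way was not counted. In CPM, the groups did not overlap for 27.8% of the 22247 genes tested.

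**Figure D2:**
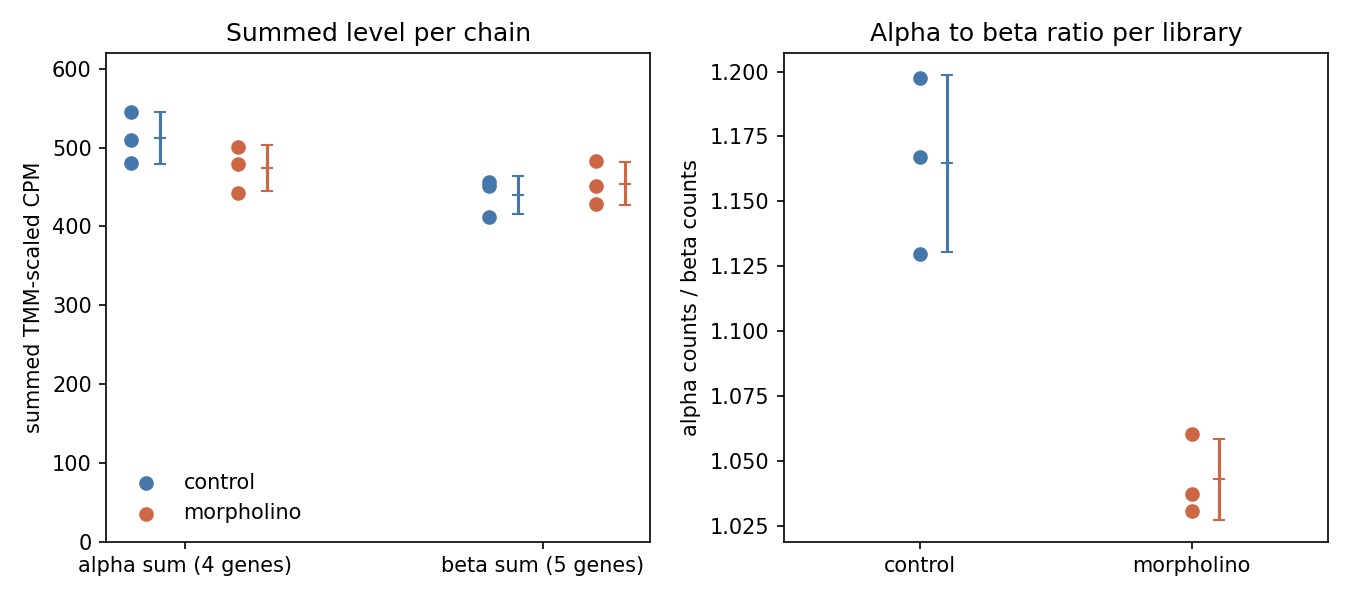
Left, summed TMM-scaled CPM of the 4 embryonic alpha and 5 embryonic beta genes; right, alpha counts over beta counts, on an axis that does not start at 0. Points are libraries, with mean ± SD beside them. Sums overlap between the groups, and the ratio does not (1.16 ± 0.034 against 1.04 ± 0.016).

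Some single genes differed more than these sums. Of the 9 genes, 8 passed the filter on low counts and 3 were called, hbbe1.1 higher and hbbe1.3 and hbae1.3 lower. Over all genes tested, 6.19% were called, 2.88% higher and 3.31% lower.

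The largest fall among the 9 was that of hbbe1.3, the third beta copy of the chromosome 3 cluster. It stood at 71.7, 74.2 and 70.0 CPM in controls 1 to 3 and at 32, 32.2 and 35.9 CPM in morpholino libraries 1 to 3. Every morpholino library was at about the same level and far below every control. The mean was 72.0 ± 2.11 CPM in controls and 33.3 ± 2.19 CPM after morpholino, and the log2 fold change was -1.11 ± 0.07 (adjusted p = 3.3e-05). With any one library left out it stayed between -1.17 and -1.08 and called.

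The first copy of the trio, hbbe1.1, which held the most counts of any beta gene, moved the other way. Its level was 233, 183 and 227 CPM in controls and 295, 275 and 259.8 CPM after morpholino. The lowest morpholino library lay above the highest control, while control 2 stood below the other controls. The log2 fold change was 0.37 ± 0.09 (adjusted p = 0.0436). Leaving out control 2 or 3 or any morpholino library ended this call, with values from 0.26 to 0.41 and adjusted p from 0.0758 to 0.143.

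The middle copy, hbbe1.2, was between its neighbours. It stood at 71.9, 81.1 and 85.5 CPM in the controls and at 71.1, 63.9 and 62.0 CPM in the morpholino libraries. The groups were apart by less than 1 CPM at their nearest libraries, and the log2 fold change, -0.28 ± 0.08, missed the threshold (adjusted p = 0.0759). Without control 1 it was -0.35 and passed (adjusted p = 0.0462).

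The summed level of the 3 copies overlapped between the groups. Their sum was 366 ± 23.9 CPM in controls and 375 ± 20.5 CPM after morpholino. As 1 row of the whole-table fit, an alternative added after seeing the data, the trio gave 0.04 ± 0.07 (adjusted p = 0.819). The share of the trio's counts on hbbe1.1 was 58.5% ± 3.94 in controls and 73.6% ± 0.84 after morpholino, and that on hbbe1.3 was 19.7% ± 1.91 and 8.91% ± 1.02. For both shares the groups did not overlap. Such shares were not counted over other tandem families. The nearest measure, the share of counts on a gene's second row, did not overlap in 36.7% of 2233 genes. Whether the RNA of the copies changed, or reads were assigned differently among nearly identical copies, was not tested; of the 22247 genes, 27.8% had groups that did not overlap in CPM.

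**Figure D3:**
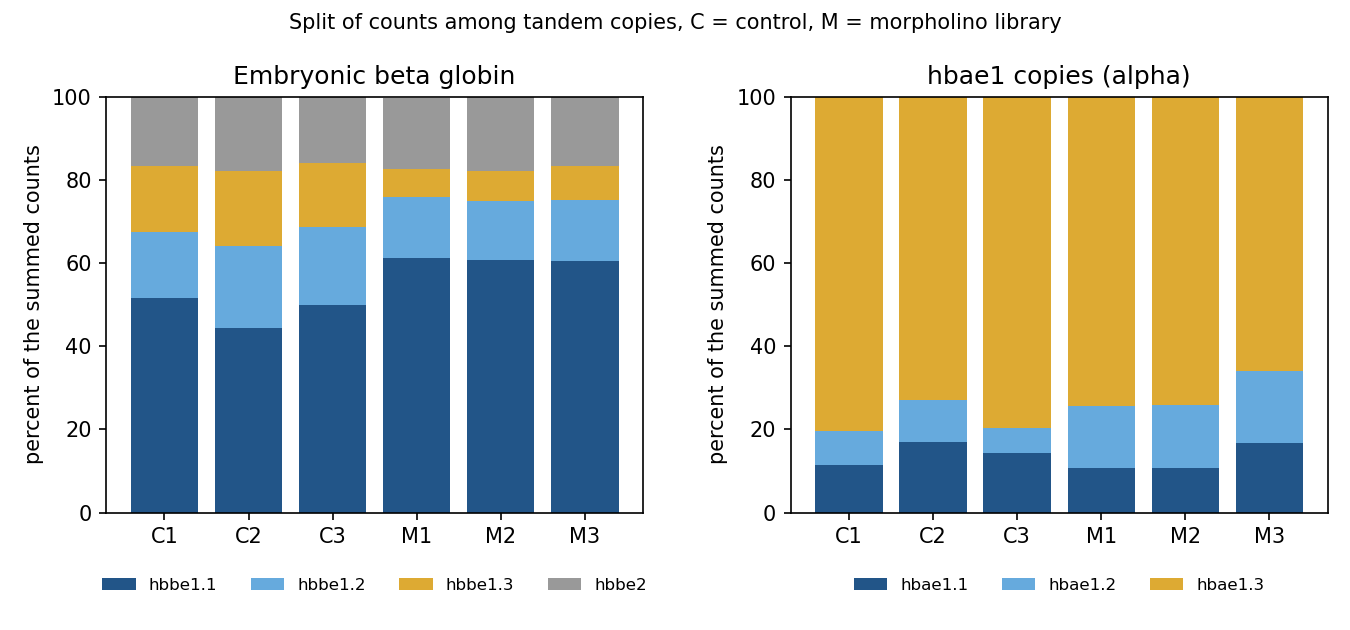
Percent of counts on each tandem copy in each library, C for control and M for morpholino; left, embryonic beta genes (hbbe3, under 0.3% in each library, is too thin to show), right, the hbae1 copies. The band of hbbe1.3 narrows from 16.4% ± 1.40 to 7.37% ± 0.89 of beta counts, and that of hbbe1.1 widens from 48.6% ± 3.70 to 60.8% ± 0.27.

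Among the alpha genes, hbae1.3, the last copy of the hbae1 trio, fell. It stood at 30.4, 28.7 and 30.1 CPM in controls 1 to 3 and at 20.7, 17.4 and 17.1 CPM in morpholino libraries 1 to 3. No morpholino library reached the lowest control. The log2 fold change was -0.69 ± 0.10 (adjusted p = 0.00257), and it stayed between -0.78 and -0.64 and called with any one library left out. The first copy, hbae1.1, stood at 4.35, 6.68 and 5.40 CPM in the controls and at 2.98, 2.55 and 4.34 CPM in the morpholino libraries. The highest morpholino library all but met the lowest control, and the log2 fold change of -0.74 ± 0.24 did not pass (adjusted p = 0.0986).

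Unlike the beta trio, the hbae1 trio was lower as a sum. With hbae1.2, the copy outside the 9 genes, it summed to 38.3 ± 0.88 CPM in controls and 25.8 ± 2.17 CPM after morpholino. As 1 row of the whole-table fit, also added after seeing the data, it fell by 0.57 ± 0.08 on the log2 scale (adjusted p = 0.00351). Of the trio's counts, hbae1.3 held 77.6% ± 4.13 in controls and 71.4% ± 4.76 after morpholino. The sum thus largely repeats the values of hbae1.3. hbae1.2 itself did not pass, at 3.11 ± 0.83 and 4.07 ± 0.48 CPM (0.38 ± 0.23, adjusted p = 0.377). The share of the trio's counts on hbae1.2 was 8.09% ± 1.99 in controls and 15.8% ± 1.29 after morpholino.

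hbae3, the main embryonic alpha gene, held 93.0% ± 0.42 of embryonic alpha counts in controls and 95.2% ± 0.39 after morpholino. Its level was 475, 445 and 509.7 CPM in controls and 475, 458 and 420.0 CPM after morpholino, and the groups overlapped. The log2 fold change was -0.08 ± 0.07 (adjusted p = 0.595), with a 95% interval from 0.856-fold to 1.05-fold. hbae3 had 2.24 ± 0.20 counts for each count of hbbe1.1 in controls and 1.63 ± 0.031 after morpholino.

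On chromosome 12, the beta gene hbbe2 overlapped between the groups once its table rows were added. The second row has no coordinates and is taken as a copy of hbbe2 from its name alone, and the call depends on adding it. It summed to 75.1, 73.3 and 72.2 CPM in controls 1 to 3 and to 83.2, 80.9 and 70.9 CPM in morpholino libraries 1 to 3, groups that overlapped, with a log2 fold change of 0.09 ± 0.07 (adjusted p = 0.517). Its 2 rows, each taken alone, moved in opposite directions. The row with coordinates held 31.3, 31.1 and 27.0 CPM in controls and 58.5, 53.4 and 51.3 CPM after morpholino, and rose by 0.87 ± 0.09 on the log2 scale (edgeR on the rows as deposited, adjusted p = 3.8e-04). The second row, hbbe2_1, held 43.7, 42.2 and 45.1 CPM in controls and 24.7, 27.5 and 19.6 CPM after morpholino, and fell by 0.86 ± 0.12 (adjusted p = 0.00198).

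The second row thus took 59.5% ± 2.69 of the counts of hbbe2 in controls and 30.5% ± 3.24 after morpholino. Such a share did not overlap between the groups in 36.7% of the 2233 genes whose plain and second rows were both tested. In the rows as deposited 8.31% of 24652 rows were called, 3.77% higher and 4.54% lower. Like hbbe2, 145 of the 2396 genes with several tested rows (6.05%) had 1 row called higher and another lower, and 132 (5.51%) were of this kind with their sum not called.

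**Figure D4:**
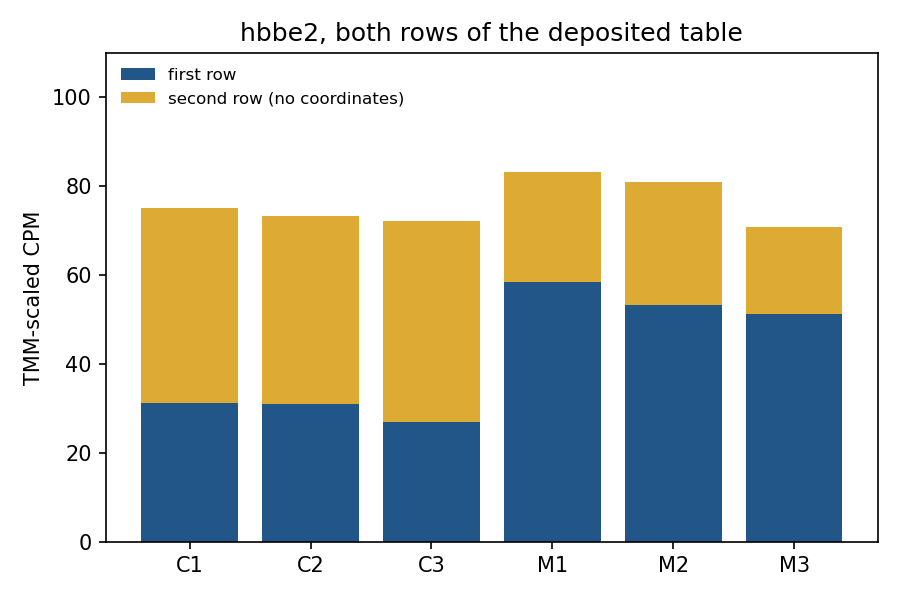
TMM-scaled CPM of hbbe2 in each library, C for control and M for morpholino, with the counts of the table row that has coordinates below and those of the second row above. The total stays between 70.9 and 83.2 CPM while the second row shrinks from 43.7 ± 1.47 to 24.0 ± 4.0 CPM.

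The remaining genes were near the limit of detection. hbae5, both rows added, had 12, 9 and 11 counts in controls 1 to 3 and 29, 17 and 12 in morpholino libraries 1 to 3, and did not pass (0.69 ± 0.42, adjusted p = 0.383). Its highest value came from morpholino library 1, and the groups overlapped. For hbbe3, controls 1 to 3 had 1, 4 and 15 counts and morpholino libraries 1 to 3 had 23, 0 and 4. It did not pass the filter on low counts and was not tested. hbae4, an alpha gene of this cluster outside the 9, had 39 counts in all controls and 43 in all morpholino libraries (0.03 ± 0.46, adjusted p = 0.983).

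**Figure D5:**
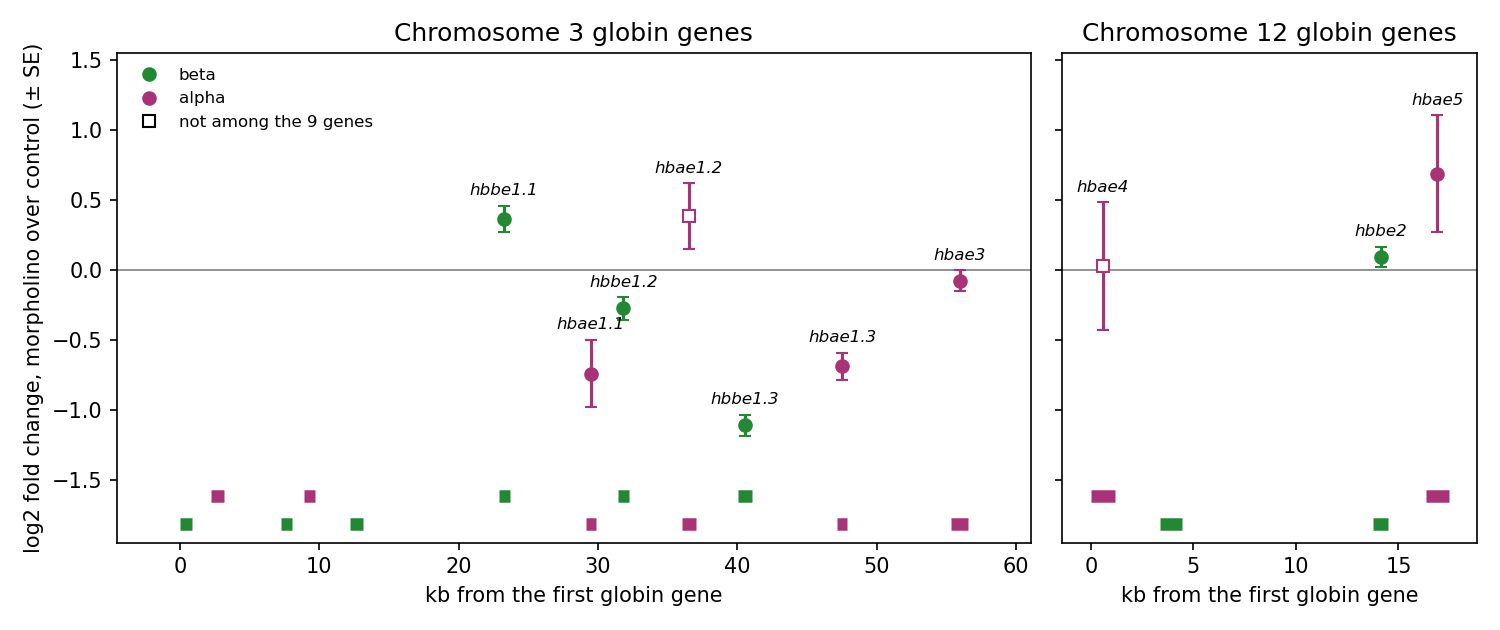
Log2 fold change (± SE) of each tested globin gene against its distance in kb from the first globin gene of the cluster; filled circles are the 8 of the 9 embryonic genes that were tested, open squares hbae1.2 and hbae4. Blocks at the bottom mark gene positions, forward strand above and reverse strand below; on chromosome 3 the beta copies run from 0.37 through -0.28 to -1.11 along the strand.

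Other genes of red cells were counted by list. Of 28 tested genes for red cell membrane and enzymes, none was called in edgeR with rows summed and all libraries kept. An unadjusted p under 0.05 was found for 7, beside 21.7% of all genes tested. DESeq2, which called 6.26% of all genes, called 1, pklr. In the rows as deposited, edgeR called pklr too (adjusted p = 0.0496), beside 8.31% of all rows. With 1 library left out, pklr was called only without morpholino library 3, and slc4a1a only without control 1. The median log2 fold change was -0.01, and 0.01 over all genes. slc4a1a, the anion exchanger of the red cell membrane, stood at 39.7 ± 6.78 and 31.8 ± 1.33 CPM (adjusted p = 0.127). cahz, a carbonic anhydrase of red cells, stood at 68.4 ± 3.60 and 58.4 ± 2.99 CPM (adjusted p = 0.0906), and pklr, a pyruvate kinase also used in liver, at 124 ± 3.99 and 89.0 ± 17.2 CPM (adjusted p = 0.0656). The summed level of the list ran from 1938 to 2018 CPM in the controls and from 1895 to 1961 CPM in the morpholino libraries. prdx2 made up the largest part of this sum, at 628 ± 31.7 and 652 ± 39.4 CPM. How much of the sum came from red cells was not tested.

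Genes of heme synthesis, which makes the group that globin chains carry, held a few falls. Of 21 tested none was called higher and 3 were called lower, with a median of -0.08, and 9 had an unadjusted p under 0.05. Over all genes tested, 2.88% were called higher and 3.31% lower, the median was 0.01, and 21.7% had an unadjusted p under 0.05. Not every gene of the list moved down. Among those that moved up and were not called were fech (0.53 ± 0.18, adjusted p = 0.123), tspo (0.20, adjusted p = 0.197) and clpxa (0.18, adjusted p = 0.155). alas1, the first enzyme of the pathway in most tissues, fell by 0.58 ± 0.09, from 290.1 ± 11.6 to 194 ± 26.2 CPM (adjusted p = 0.00516). cpox, a later enzyme of the pathway, fell by 0.46 ± 0.09 (adjusted p = 0.0119, lost without control 2 or 3). alad, the second enzyme, fell by 0.39 ± 0.10 (adjusted p = 0.0411), a call that DESeq2 did not make and that ended without control 2 or 3 or any morpholino library. alas2, the form of the first enzyme specific to red cells, varied too much to compare, at 6.46 ± 4.80 and 3.88 ± 4.12 CPM. Of 18 genes of iron and heme handling none was called higher and 1 lower. This was tfr1b, a transferrin receptor gene, which fell from 114 ± 11.8 to 59.9 ± 7.92 CPM (-0.93 ± 0.11, adjusted p = 0.0015). The other transferrin receptor gene of the list, tfr1a, was not called, at 26.2 ± 6.28 and 22.5 ± 4.37 CPM (-0.22 ± 0.23, adjusted p = 0.653). In the rows as deposited the plain row of tfr1b gave -0.68 and was not called (adjusted p = 0.0707). An unadjusted p under 0.05 was found for 6 of the 18 iron and heme handling genes and 6 of the 23 erythroid regulators, beside 21.7% of all genes. Of 23 erythroid regulators none was called higher and 1 lower with rows summed. This was gata2a, a blood progenitor transcription factor, which fell by 0.40 ± 0.11 (adjusted p = 0.0496), a call lost in DESeq2 and without any one library. In the rows as deposited, the plain row of klf3 was called lower (-0.68, adjusted p = 0.0128). That of nfe2l1a was called higher (2.55, adjusted p = 0.0237). As sums these genes were not called (adjusted p of 0.0594 and 0.135). gata1a, the main red cell transcription factor, was too low to test at 0.31 ± 0.15 and 0.29 ± 0.25 CPM.

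Globins of other tissues were compared for scale. Of 8 tested genes of this list, which holds hbae1.2 and hbae4 as well, none was called higher and 1 was called lower. Over all genes tested, 3.31% were called lower. mb, which encodes myoglobin, the oxygen store of muscle, fell by 0.47 ± 0.11, from 20.3 ± 1.17 to 14.6 ± 1.46 CPM (adjusted p = 0.0256). This call was lost without control 2 or 3 or morpholino library 1 or 2. cygb1, a cytoglobin, stood at 73.0 ± 4.79 and 67.6 ± 5.04 CPM (adjusted p = 0.452), and ngb, the neuroglobin of nerve cells, at 13.9 ± 1.61 and 16.3 ± 2.11 CPM with its rows added (adjusted p = 0.332). In edgeR on the rows as deposited, the plain row of ngb gave -0.33 and was not called (adjusted p = 0.577). The second row of ngb gave 0.59 and was called (adjusted p = 0.0416).

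By root mean square difference of centred log2 CPM over the 6 libraries, the genes most like the summed 9 globin genes, out of 13697 other genes, included nckipsd (0.0165), arhgap29b (0.0180), lamc3 (0.0185) and sestd1 (0.0217). A gene at the same level in all libraries would stand at 0.0723, since the globin sum itself varied little.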

How the data were processed

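RNA of 6 libraries of whole zebrafish larvae was selected on poly-T beads, per the labels' protocols. The read counts deposited by the authors are whole numbers per table row, not normalized. The FPKM values deposited by the authors, scaled by row length and library reads, were used only to read off row lengths. TPM, deposited by the authors and scaled by row length to the same sum per library, served to compare levels between genes. Per the submitters' processing notes, HISAT2, StringTie 1.3.1 and RSEM were used on GRCz11, with no role given. Whether counting used strand is not stated there, so it is not known whether reads of overlapping antisense genes were separated. Reads of near-identical copies can be divided among table rows, which moves counts between copies.

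Rows of a gene (symbol, or symbol plus _number) were summed, filtered with filterByExpr (min.count 10, min.total.count 15), scaled with TMM and tested in edgeR 4.0.16 (R 4.3.3, robust quasi-likelihood, no covariate). DESeq2 1.42.0 was an alternative. The code was tested on simulated data. Summed levels and ratios were compared by exact permutation of libraries. For only 5 of the 9 genes does the table's gene ID equal that of the symbol in RefSeq GRCz12tu. For the rest it does not, so identity rests on the symbol. The members and the 9 lists (listed symbols matched directly or through RefSeq synonyms) were chosen with earlier results of these data known. Named are the 9 genes, other globin genes, up to 4 called members of a list (or 2 with the smallest adjusted p), and the 5 genes with the most similar profile, of which 1 is not reported here. Precision covers counting and library spread only.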

Additional observations from a re-analysis of the deposited data

How the results depend on the processing

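The number of called genes over the whole table was 1378. With 1 library left out it ranged from 579 to 1070. It was 579 without control 2, 627 without control 3, 699 without morpholino library 1 and 715 without morpholino library 3. DESeq2 called 1390 genes. In the rows as deposited, 2049 of 24652 rows were called, a count of rows and not of genes. The number of embryonic globin genes called, 3, ranged from 2 to 4 with 1 library left out. The replicate block gave 3 embryonic globin genes and 1362 genes in all. Same-numbered libraries did not deviate together (correlations of -0.029, 0.050 and -0.002 over 22247 genes), so numbers were not taken as pairs. The log2 difference of the summed alpha and beta level, -0.04, turned to 3.4e-04 without control 3 and to 0.0080 without morpholino library 3, within a range of -0.082 to 0.0080, values near 0. That of the beta sum ranged from 1.5e-04 to 0.09, that of the alpha sum from -0.16 to -0.06 and that of the alpha to beta ratio from -0.18 to -0.14. hbbe2 was called in the rows as deposited (0.87) and not as a sum. The fold changes of hbbe1.3 and hbae1.3 kept their direction and their call in every setting run, among them total counts as library sizes, globin genes left out of the scaling, and no filter. Depth limits hbae5 and hbbe3, each at under 30 counts in each library.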

Other observations

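Neighbouring genes on chromosome 12 that, like hbbe2, have a second row were looked at after their values were seen. The second row of the aquaporin gene aqp8a.2 took 38.4% ± 2.61 of its counts in controls and 6.81% ± 2.43 after morpholino (SD, n = 3). For rhbdf1b, a rhomboid family gene, the second row took 27.4% ± 8.42 and 8.85% ± 2.2, and for aqp8a.1 it took 82.5% ± 8.74 and 66.4% ± 5.06. In each of these genes the groups did not overlap, as in 36.7% of the 2233 genes whose plain and second rows were both tested. For lcmt1, a methyltransferase gene, the shares were 60.7% ± 11.7 and 52.1% ± 5.06 and the groups overlapped. The second row of arhgap17a held no counts. With rows summed, aqp8a.2 rose by 0.55 ± 0.08 on the log2 scale, from 36.8 ± 2.83 to 53.9 ± 1.14 CPM (edgeR adjusted p = 0.00268), while aqp8a.1, rhbdf1b and lcmt1 did not pass (adjusted p of 0.658, 0.850 and 0.738). Within 100 kb of the chromosome 3 cluster, none of the 5 non-globin genes tested in edgeR (rhbdf1a, mpg, nprl3, kank2 and dock6) was called, and the smallest adjusted p was that of nprl3, the gene that borders the globin cluster (0.33 ± 0.10, adjusted p = 0.0807).

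Markers of other blood and vessel cells were counted in the same libraries. Among 17 tested genes of macrophages and neutrophils, 4 were called higher and none lower, with a median log2 fold change of 0.42. Not every gene moved up. srgn (-0.62, adjusted p = 0.393), mmp9 (-0.39, adjusted p = 0.794) and coro1a (-0.13, adjusted p = 0.970) moved down and were not called. Over all genes tested, 2.88% were called higher and 3.31% lower, and the median was 0.01. The summed level of these 17 genes was 170.1 to 232 CPM in controls and 253 to 283 CPM after morpholino. mpeg1.2, a macrophage perforin gene, rose by 1.2 ± 0.14 (adjusted p = 0.00248), and mpx, cybb and grna by 0.58, 0.62 and 0.70, calls that were each lost without at least 4 single libraries. In the rows as deposited cybb and grna were not called (adjusted p of 0.0508 and 0.0510). Of the 17 genes, 8 had an unadjusted p under 0.05, as did 21.7% of all genes tested. Of 7 thrombocyte genes 1 rose, f5, a coagulation factor also made in liver (0.34 ± 0.08, adjusted p = 0.0345, lost without any of 5 libraries, all except morpholino library 2). Of 18 endothelial genes 1 fell, lyve1b, a lymphatic vessel gene at 1.73 ± 0.62 and 0.425 ± 0.18 CPM (adjusted p = 0.0221, lost without control 2 or morpholino library 2 or 3). Of 19 hypoxia response genes 1 rose, pdk1 (0.36 ± 0.09, adjusted p = 0.0436, lost without any of 5 libraries, all except morpholino library 2), and 1 fell, pfkfb4b (-0.50 ± 0.10, adjusted p = 0.0192, lost without control 2 or 3 or morpholino library 3). The hypoxia list had a median log2 fold change of 0.23. It summed to 1135 to 1160 CPM in controls and 1189 to 1224 CPM after morpholino. How often the sum of a list of genes stands apart between the groups was not counted. Of the 19 hypoxia response genes, 7 had an unadjusted p under 0.05, beside 21.7% of all genes tested. The part of all these markers in the globin values was not tested.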
